A study of Mus musculus with 3 samples.

Results

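Intermediate filament genes were described in the early headfold (EHF) stage mouse embryo as every gene symbol of the array table that begins with Krt and a number, older hyphenated forms included, together with *Vim*, *Des*, *Nes*, *Gfap*, *Prph*, *Lmna*, *Lmnb1* and *Lmnb2*. These rules take names only and use no measured value. They gave 63 of the 30854 symbols of the table, 55 of them keratins, and the 63 symbols stand for 57 current genes because some keratins are listed under a current and an older name. The samples were 3 Illumina Mouse-6 bead arrays, replicates 1, 2 and 3, which form a single group of wild-type samples: the embryonic part of each embryo was cut away from the extraembryonic part, and its RNA was hybridized. The animals carried no mutant allele and received no treatment, so the data allow each gene to be set against the background of its own array and the arrays to be set against each other, and they allow no comparison of genotypes, stages or tissues. The labels name the stock CD-1 and a column kit for the RNA, while the methods name ICR and TRIzol, and neither settles how many embryos went into an array, so the spread between arrays may be partly technical.

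Intermediate filaments are the rope-like part of the cytoskeleton. Keratins are obligate heteropolymers in which an acidic type I keratin pairs with a basic type II keratin, and different pairs mark different epithelia: *Krt8* with *Krt18* in simple epithelia and the early embryo, *Krt5* with *Krt14* in the basal epidermis, and other pairs in differentiated epidermis and hair. Vimentin is typical of mesenchyme, desmin of muscle, nestin of neural and muscle progenitors, GFAP of astrocytes and peripherin of peripheral neurons, and the lamins form the meshwork under the nuclear envelope.

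Signals are given on the deposited log2 scale, on which the medians of all symbols were 6.57, 6.51 and 6.42 on replicates 1, 2 and 3, and each symbol was read from a median of 44, 43.5 and 43 beads. A symbol was called when its detection p, the share of negative-control probes on the array with at least its signal, was under 0.01 on all 3 arrays. Among symbols with a single probe and a detection p other than 0, the lowest signals that met this threshold were 6.69, 6.66 and 6.58, which are taken below as the background levels of the arrays. A probe's brightness depends on its sequence as well as on its transcript, so signals of different symbols are not read as relative amounts, and the brightest row of a gene list is named only to show what it holds. In RNA from a whole tissue, few cells with much of a transcript and many cells with little of it cannot be told apart.

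Of the 63 intermediate filament symbols, 10 were called, or 15.9%, beside 20.6% of all symbols on the array. These were the keratins *Krt7*, *Krt8*, *Krt18*, *Krt19*, *Krt10* and *Krt23*, the muscle filament desmin (*Des*), and all 3 lamin genes. Only 6 of 55 keratin symbols (10.9%) were called, whereas 4 of the 8 other symbols (50%) were. Single arrays added *Krt32*, called on 2 arrays, and *Krt17*, *Vim* and *Nes*, each called on 1. The remaining 49 symbols, 47 of them keratins, were called on no array. The median of the mean signal was 6.46 for the 63 symbols and 6.49 for all symbols, both under the mean background level of 6.64.

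**Figure D1:**
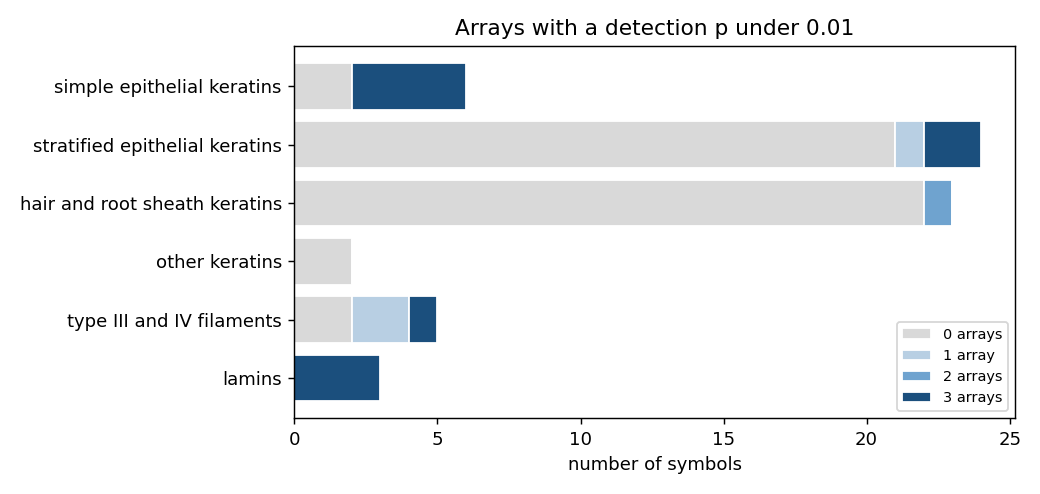
Number of intermediate filament symbols by class, divided by the number of arrays (0, 1, 2 or 3) on which the detection p was under 0.01. All 3 lamins and 4 of 6 simple epithelial keratin symbols were called on 3 arrays, and 22 of 23 hair and root sheath keratin symbols were called on none.

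The simple epithelial keratins held 4 of the 6 keratin calls. *Krt8*, the type II keratin of simple epithelia, gave signals of 9.87, 9.66 and 8.81 on replicates 1, 2 and 3 (9.44 ± 0.56, SD, n = 3). *Krt18*, its type I partner, gave 9.46, 9.07 and 8.41 (8.98 ± 0.53, SD, n = 3). Both were far above background on every array, and both were highest on replicate 1 and lowest on replicate 3. After background correction and quantile normalization, *Krt8* stood 4.76, 4.64 and 3.89 log2 units above the background level of its array, and *Krt18* stood 4.30, 3.97 and 3.42 above it. In limma's one-sided test of that difference, adjusted over all 30854 symbols, the mean difference was 4.43 for *Krt8* (SE 0.15, adjusted p = 9.29e-186) and 3.90 for *Krt18* (SE 0.15, adjusted p = 1.96e-144). The fit pooled the spread of all symbols into 1 standard error and treated it as known, so these p-values are too small to be read literally, and over 8 other settings the largest adjusted p was 0.000581 for *Krt8* and 0.000855 for *Krt18*.

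*Krt8* and *Krt18* are neighbours in the genome, on opposite strands of the type II keratin cluster on chromosome 15, with 2 long noncoding RNA genes annotated between them, although *Krt18* is a type I gene and the other type I keratin genes of the table lie on chromosome 11. Because these partners are encoded side by side and were both far above background, the 300 bases around each start are printed, 250 before it and 50 after it, from RefSeq on GRCm38.p6. The window is chr15:102004293-102004592 on the minus strand for *Krt8*, with a GC content of 58.0%, and chr15:102027966-102028265 on the plus strand for *Krt18*, with a GC content of 61.3%. Capitals mark the only matches found to the motifs searched, which are 2 overlapping TATAAA matches, on opposite strands and across the annotated start, for *Krt8*, and a match to the AP-2 pattern GCCNNNGGC at position -83 from the start for *Krt18*.
Krt8: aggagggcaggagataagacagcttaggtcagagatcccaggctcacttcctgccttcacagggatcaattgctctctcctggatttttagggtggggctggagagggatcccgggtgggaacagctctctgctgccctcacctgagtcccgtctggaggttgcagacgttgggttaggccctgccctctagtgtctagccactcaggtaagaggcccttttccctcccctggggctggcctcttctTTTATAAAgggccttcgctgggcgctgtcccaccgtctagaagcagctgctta
Krt18: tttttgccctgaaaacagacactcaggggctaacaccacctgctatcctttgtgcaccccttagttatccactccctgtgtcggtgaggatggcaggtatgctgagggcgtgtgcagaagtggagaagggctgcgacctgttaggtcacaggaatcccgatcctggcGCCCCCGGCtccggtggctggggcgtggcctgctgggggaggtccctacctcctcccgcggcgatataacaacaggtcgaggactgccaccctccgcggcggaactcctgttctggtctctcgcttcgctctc
The motifs were searched on both strands as exact letters. TATAAA was present in 13.6% of 32851 RefSeq promoter windows of the same length, and GCCNNNGGC in 16.6%. The other 3 motifs were the GC box core GGGCGG (35.7% of windows), the AP-1 pattern TGANTCA (7.81%) and CCAAT (37.4%), and neither window held them. Of 33 keratin genes with a window, TATAAA was found in 2 of 5 called and 15 of 28 uncalled genes, and GCCNNNGGC in 2 of 5 called and 3 of 28 uncalled genes. These matches describe letters only and were not tied to any factor by a measurement here.

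*Krt19*, a type I keratin of simple epithelia that lacks a tail domain, gave signals of 7.12, 7.01 and 6.67 (6.94 ± 0.23, SD, n = 3). It was called on each array, with replicate 3 nearest to background. The difference from background was 1.02, 0.97 and 0.36 log2 units, with a limma mean of 0.78 (SE 0.15, adjusted p = 5.37e-07, at most 0.0381 over the other settings). *Krt7*, a type II keratin of ductal and other simple epithelia, gave 6.72, 6.69 and 6.69 (6.70 ± 0.01, SD, n = 3), and its detection p was 0.00748, 0.00427 and 0. It met the call on all arrays at the edge of background, and in limma's test its difference of 0.21 (SE 0.15) did not pass (adjusted p = 0.311). That verdict depended on the reference. *Krt7* passed against the array median of all symbols (0.20, adjusted p = 0.0111) and with the background set from undetected symbols (0.84, adjusted p = 0.00649). Both references are lower than the background level used elsewhere. Against that level, limma's adjusted p was 0.303 on unnormalized signals, 0.424 without background correction and 0.348 with an offset of 50. Without replicate 3 the limma difference was 0.10 (adjusted p = 0.664).

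*Krt20*, a type I keratin of intestinal epithelium and urothelium, gave 6.44, 6.59 and 6.41 and was called on no array. The row under the older *Krt8* symbol, *Krt2-8*, gave 6.55, 6.44 and 6.39 and was also called on none, although the row under the current symbol was called on all 3. The same split was seen for *Krt32*, which was called on replicates 1 and 2, while its older symbol *Krt1-2* was called on none. None of the 7 rows under an older symbol of a current gene was called, with mean signals between 6.38 and 6.46. The table gives no probe sequences, so which part of a transcript each row measures, and whether transcripts of processed pseudogenes or of other keratins bind to it, was not tested.

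**Figure D2:**
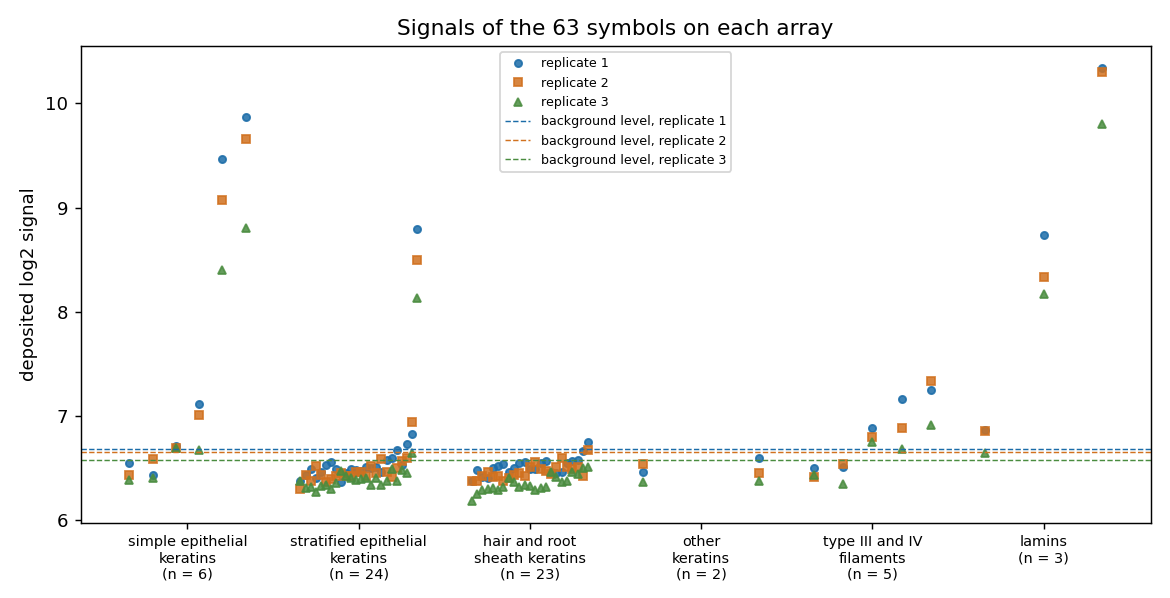
Deposited log2 signal of the 63 symbols on replicates 1, 2 and 3, each point a symbol on an array, with the background levels of the arrays (6.69, 6.66 and 6.58) as dashed lines. The symbols are grouped by class and ordered by signal within it. The points far above the dashed lines are *Krt18* and *Krt8* among the simple epithelial keratins, *Krt10* among the stratified ones, and *Lmnb2* and *Lmnb1* among the lamins.

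Of the 24 symbols grouped as keratins of stratified epithelia, 2 were called (8.33%, beside 20.6% of all symbols). They were *Krt10* and *Krt23*, the latter not typical of the class. *Krt10*, the type I keratin of suprabasal, differentiating epidermis, gave 8.79, 8.49 and 8.13 (8.47 ± 0.33, SD, n = 3). It was above background by 3.51, 3.29 and 3.07 log2 units, with a limma mean of 3.29 (SE 0.15, adjusted p = 1.89e-103, at most 0.000366 over the other settings). Its usual type II partner *Krt1*, present under the older symbol *Krt2-1*, gave 6.51, 6.45 and 6.41 and was called on no array. *Krt10* was called on every array and the only *Krt1* row on none. None of the 7 rows under an older symbol was called, the older *Krt8* row included, so this row does not settle whether *Krt1* was transcribed. *Krt23*, a type I keratin known from several glandular epithelia, gave 6.83, 6.95 and 6.65 (6.81 ± 0.15, SD, n = 3). Its difference from background in limma's test was 0.49 (SE 0.15, adjusted p = 0.00266). That difference did not pass without replicate 2 (0.32, adjusted p = 0.324) or with deposited signals left without normalization (0.17, adjusted p = 0.0711).

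The basal epidermal pair was not called. *Krt5* gave 6.41, 6.52 and 6.27, and *Krt14* gave 6.68, 6.51 and 6.38 with a detection p of 0.0118 on replicate 1 and 0.521 on replicate 3. *Krt17*, a keratin of hair follicles and stressed epidermis that is also known from embryonic ectoderm, gave 6.73, 6.60 and 6.45 and was called on replicate 1 alone, with a detection p of 0.00534 there, 0.0299 on replicate 2 and 0.154 on replicate 3. Of the hair and root sheath keratins, 0 of 23 symbols were called. In this class only *Krt32* was called on any array, with signals of 6.76, 6.67 and 6.51 and a detection p of 0.00214, 0.00641 and 0.0491. The limma test also passed 0 of the 23, and 0 at an unadjusted p under 0.05, where its adjusted threshold passed 25.7% of all symbols. The 47 keratin symbols called on no array had mean signals from 6.31 to 6.53, all under the mean background level. For symbols with 1 probe this follows from how the background level was defined. By keratin type, 4 of 32 type I symbols (12.5%) and 2 of 22 type II symbols (9.09%) were called, so the detected keratins were *Krt8* and *Krt7* on the type II side and *Krt18*, *Krt19*, *Krt10* and *Krt23* on the type I side.

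Of *Vim*, *Des*, *Nes*, *Gfap* and *Prph*, desmin was the only one called on all 3 arrays. *Des* gave 6.88, 6.80 and 6.76 (6.81 ± 0.06, SD, n = 3), a little above background on each array. Its limma difference was 0.51 (SE 0.15, adjusted p = 0.0014), and over the other settings it ran from 0.17 to 1.14 (adjusted p at most 0.035). Vimentin gave 7.25, 7.34 and 6.91 (7.17 ± 0.22, SD, n = 3) and was called on replicate 2 alone, with a detection p of 0.105, 0.00143 and 0.422. *Vim* is measured by 2 probes, as inferred from the steps of its p-values, and its detection p combines both. The combined values correspond to summed probe p-values of 0.457, 0.0534 and 0.919, so at least 1 of the probes had a p of 0.229 or more on replicate 1 and of 0.459 or more on replicate 3. The values of the single probes are not in the table, so how each contributes to the *Vim* signal was not tested. The limma test, which uses the averaged signal, placed *Vim* above background by 1.30 (SE 0.15, adjusted p = 2.13e-17). Over the other settings that difference ran from 0.51 to 1.93 (adjusted p at most 0.00572).

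Nestin (*Nes*), also with 2 probes, gave 7.17, 6.89 and 6.68 (6.91 ± 0.24, SD, n = 3). Its combined detection p was 0.0219, 0.0337 and 0.0028, so only replicate 3, where its signal was lowest, met the call. Its limma difference was 0.72 (SE 0.15, adjusted p = 3.88e-06), and with deposited signals left without normalization it was 0.27 and did not pass (adjusted p = 0.0592). Such splits were common on the array. Of 3517 symbols with several probes and a signal above the background level on all arrays, 1844 (52.4%) were not called. *Gfap* gave 6.52, 6.54 and 6.35 and *Prph* gave 6.51, 6.42 and 6.44, and neither was called on any array or passed the limma test. By the limma test 11 of the 63 symbols were above background, beside 25.7% of all symbols. These were the called symbols other than *Krt7*, with *Vim* and *Nes* added.

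**Figure D3:**
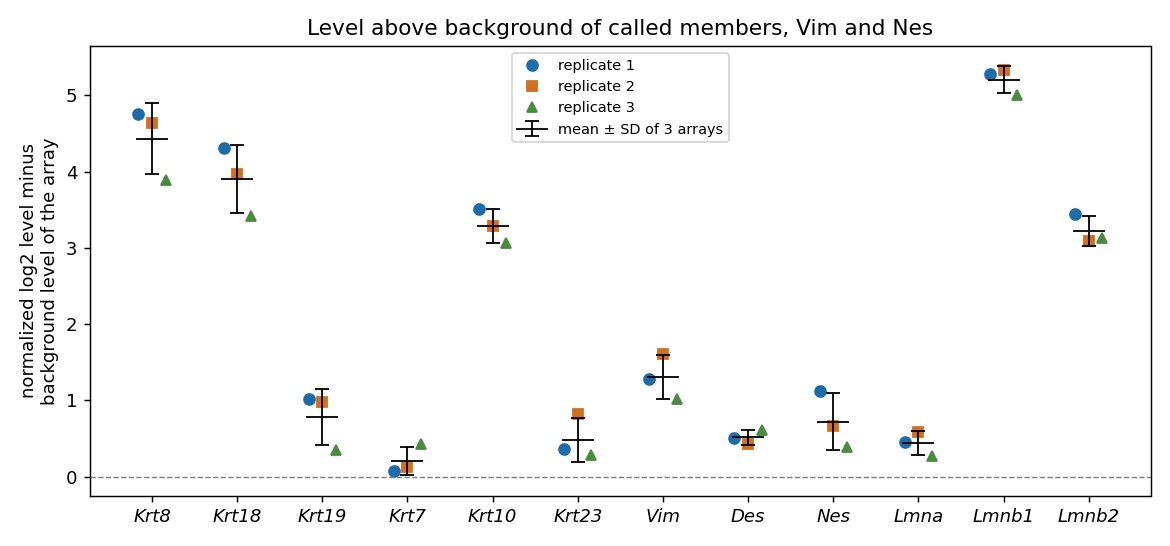
Level of the intermediate filament symbols above the background level of the same array, in log2 units after background correction and quantile normalization, for the called symbols, *Vim* and *Nes*, with points for replicates 1, 2 and 3 and bars for the mean ± SD of the arrays. *Lmnb1*, *Krt8*, *Krt18*, *Krt10* and *Lmnb2* stood more than 3 log2 units above background on all arrays, and *Krt7* stood 0.08, 0.13 and 0.42 above it.

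All 3 lamins were called. *Lmnb1*, a B-type lamin present in proliferating cells from the earliest stages, gave 10.34, 10.30 and 9.80 (10.15 ± 0.30, SD, n = 3), and *Lmnb2*, the other B-type lamin, gave 8.74, 8.33 and 8.17 (8.41 ± 0.29, SD, n = 3). *Lmnb1* has 2 probes, and its combined p-values leave at least 1 of them with a p of 0.015 or more on replicate 1, 0.0021 or more on replicate 2 and 0.024 or more on replicate 3. The limma differences were 5.21 for *Lmnb1* (SE 0.15, at most an adjusted p of 5.26e-05 over the other settings) and 3.22 for *Lmnb2* (SE 0.15, at most 0.000274). *Lmna*, which encodes the A-type lamins of differentiated cells, gave 6.87, 6.86 and 6.65 (6.79 ± 0.12, SD, n = 3). It was called on all arrays but lay close to background, by 0.46, 0.58 and 0.28 log2 units. The mean was 0.44 (SE 0.15, adjusted p = 0.00749), and without replicate 2 it was 0.37 (adjusted p = 0.226). *Lmna* is averaged over 6 probes, and its signal is no measure of amount against those of the B-type genes.

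Genes that act with lamins were then counted, a gene being called where any of its symbols was, and shares by symbol are given in parentheses, to be read beside the 20.6% of the whole array. Of 10 measured lamina partners, 7 were called (58.3% of symbols), among them *Banf1* (10.10 ± 0.14, SD, n = 3), a chromatin-binding protein of the nuclear envelope, *Lbr* (8.69 ± 0.45, SD, n = 3), the lamin B receptor, and *Sun2* (6.83 ± 0.08, SD, n = 3, under its older symbol *Unc84b*), a protein of the inner nuclear membrane. The others called were *Emd*, *Tmpo*, *Lemd2* and *Tor1aip1*, and *Syne1* and *Syne2* were called on no array. *Sun1*, under its older symbol *Unc84a* and with 2 probes, was called on 2 arrays and passed the limma test. Of 5 genes that process lamins at their C-terminal end, 3 were called (50% of symbols): *Fntb*, a subunit of farnesyltransferase (10.68 ± 0.27, SD, n = 3), *Rce1*, an endoprotease (8.62 ± 0.40, SD, n = 3), and *Icmt*, a methyltransferase (8.01 ± 0.27, SD, n = 3). The other subunit *Fnta* and the prelamin A protease *Zmpste24* were not called although they passed the limma test, and each is measured by several probes. Of 7 genes that bind keratins or take part in their turnover, 5 were called (66.7% of symbols), namely *Tchp*, *Dnajb6*, *Stub1*, *Pias1* and *Casp6*, with mean signals from 7.03 for *Tchp* to 8.93 for *Pias1*.

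Desmosomes anchor keratin filaments at the cell border. Of 13 measured plakin and desmosome genes, 3 were called, and by symbol the share was 18.8%, near the 20.6% of the whole array. They were the plaque protein plakophilin 2 (*Pkp2*, 8.16 ± 0.26, SD, n = 3), the desmosomal cadherin *Dsg2* (7.45 ± 0.36, SD, n = 3) and the spectraplakin *Macf1*, the last through its older symbol *Aclp7* (6.89 ± 0.19, SD, n = 3) and not through its current one. Desmoplakin (*Dsp*), which binds keratins directly, gave 6.85 ± 0.32 (SD, n = 3) and was called on no array, its detection p being a combination over 3 probes. Plakoglobin (*Jup*) gave 6.61, 6.36 and 6.28 on 1 probe and was called on none. The limma test passed 5 of the 13, adding *Dsp* and *Pkp4*, the latter with a mean signal of 9.29 over 2 probes and called on 2 arrays. Of 8 further measured intermediate filament genes outside the naming rule, 2 were called (20% of symbols), the neuronal filament *Ina* (6.86 ± 0.16, SD, n = 3) and *Iffo2* under the older symbol *C79267* (6.83 ± 0.15, SD, n = 3).

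**Figure D4:**
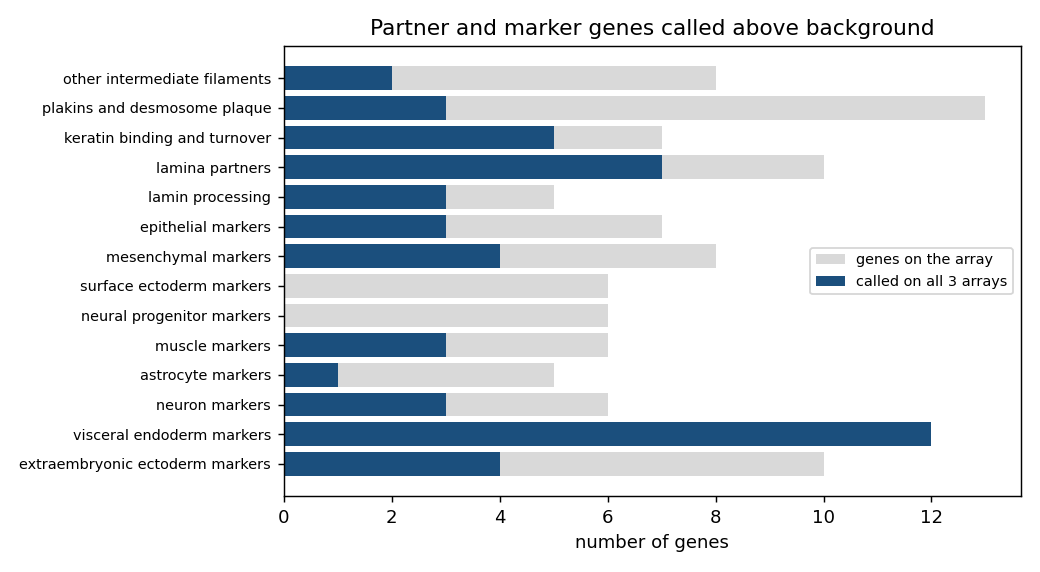
For each list of partner or marker genes, the number of genes on the array (grey) and the number called on all 3 arrays (blue). All 12 visceral endoderm markers and 7 of 10 lamina partners were called, and 0 of 6 surface ectoderm and 0 of 6 neural progenitor markers were.

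Markers of the cell types in which each filament is usually found were counted in the same way, to be read beside 20.6% of all symbols by detection and 25.7% by limma. Of 7 epithelial markers, 3 were called (37.5% of symbols), with *Cldn6* the brightest row (11.33), while *Epcam* under its older symbol *Tacstd1* and *Cdh1* were not, the latter on 2 probes and passing the limma test. Of 8 mesenchymal markers, where vimentin is usual, 4 were called (*Snai2*, *Twist1*, *Zeb1* and *Zeb2*, 40% of symbols). The limma test passed 7 of the 8, among them the brightest row, *Pdgfra* (8.14), which was called on 1 array. *Zeb2* was called and passed the limma test through its older symbol *Zfhx1b* and not through its current one. Of 6 surface ectoderm markers, where *Krt5*, *Krt14* and *Krt17* come on later, none was called and 1, *Tfap2a*, passed limma's test at adjusted p under 0.05, with mean signals of 6.98 for *Tfap2a*, the brightest row, and 6.46 for *Trp63*. Of 6 muscle markers, where desmin is usual, 3 were called (*Tnnc1*, the brightest row at 8.06, *Myl4* and *Myl7*, 42.9% of symbols). Of 6 neural progenitor markers, where nestin is usual, none was called and 0 passed limma's test, also at an unadjusted p under 0.05, the brightest row being *Sox3* at 6.64. Of 5 astrocyte markers, 1 was called (16.7% of symbols), *Slc1a3* (8.88), which is not restricted to astrocytes. Of 6 neuron markers 3 were called (37.5% of symbols), with *Isl1* the brightest row (9.09), whereas *Tubb3*, *Elavl4* and *Snap25* were called on no array. The others called were *Stmn2* and *Elavl3*, the latter through its older symbol *2600009P04Rik* and not through its current one. Whether neurons gave these calls was not tested.

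The labels describe the tissue as the embryonic region, and markers used for tissues that border it were counted as well. All 12 visceral endoderm markers were called (100% of symbols), with *Spink3* the brightest row (11.45), and 4 of 10 extraembryonic ectoderm markers were called (40% of symbols, *Cdx2*, the brightest row at 9.53, *Ets2*, *Rhox5* and *Tfap2c*), whereas *Elf5*, *Eomes*, *Ascl2* and *Gcm1* were called on none, *Esrrb* on 1 array and *Hand1* on 2. Whether the 4 called extraembryonic ectoderm markers were transcribed in that tissue or in the embryonic region itself was not tested. Visceral endoderm is a simple epithelium that is known to express *Krt8*, *Krt18* and *Krt19*. The paper reports that at this stage its descendants in the embryonic region lie scattered among definitive endoderm cells. By in situ hybridization at head-fold stages it found transcripts of a visceral endoderm *GFP* reporter only in extraembryonic visceral endoderm. It detected no *Apoc2*, a visceral endoderm marker, in the gut endoderm. From these data it proposes that the descendants lower their visceral endoderm markers. Neither *GFP* nor *Apoc2* is among the 12 markers counted here. The share of visceral endoderm in the keratin signals was not tested.

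Of the 10 called filament symbols, *Krt8*, *Krt18* and *Krt19* were lower on replicate 3 than on either other array after normalization, and *Krt7*, also a simple epithelial keratin, was not. On the normalized scale, replicate 3 minus the mean of replicates 1 and 2 was -0.49 for *Krt8*, -0.39 for *Krt18* and -0.32 for *Krt19*. For *Krt10*, *Krt23*, *Lmnb1* and *Lmna* it was -0.02, 0.01, 0.03 and 0.08, and for *Lmnb2* 0.18. *Des* and *Krt7*, both close to background, gave 0.47 and 0.64, but 0.03 and 0.11 with signals centred on the array median, and 0.18 and 0.22 without background correction. Among 2804 called symbols with a mean signal of at least 8, the median was 0.02 and the 5th and 95th percentiles were -0.55 and 0.42, so *Krt8* and *Krt18* were low on replicate 3 yet inside that range. Of these symbols, 7.1% were lower than *Krt8* and 10.4% lower than *Krt18*. With signals centred on the array median instead, the values were -0.84 for *Krt8*, -0.74 for *Krt18*, -0.28 for *Krt19*, -0.40 for *Krt10*, -0.40 for *Lmnb1* and -0.24 for *Lmnb2*, and for the called symbols with a mean signal of at least 8 the median was -0.37 and the percentiles were -0.87 and -0.04. For the 2616 called symbols with a mean signal under 7.5, where *Krt19* lies, the median on that scale was -0.16 and the percentiles were -0.48 and 0.06. With quantile normalization but no background correction, the values were -0.43, -0.33 and -0.13 for *Krt8*, *Krt18* and *Krt19*. A difference of 1 array from 2 has no test here.

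**Figure D5:**
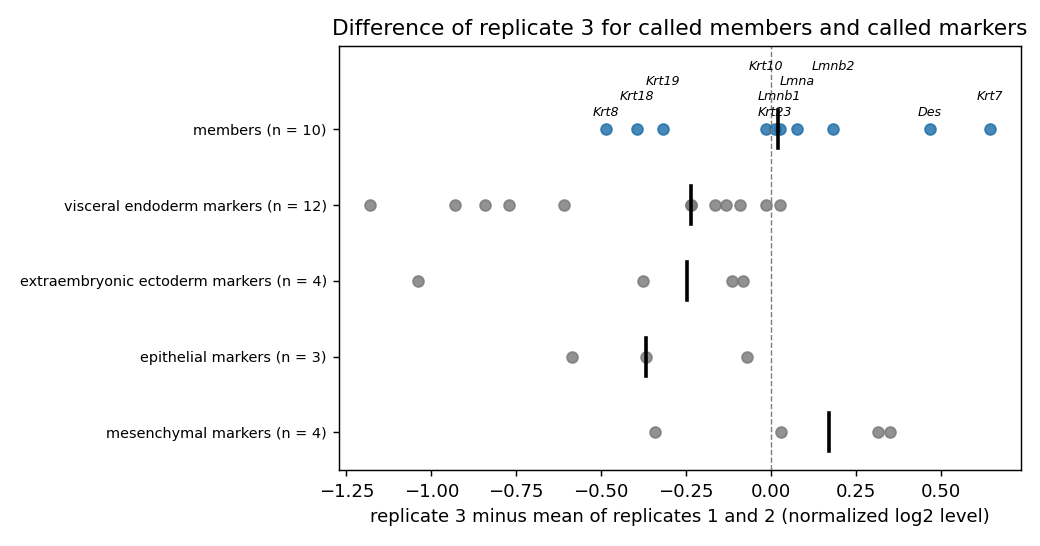
Replicate 3 minus the mean of replicates 1 and 2 on the normalized log2 scale for the 10 called intermediate filament symbols and for called marker genes, with each point a symbol and the bar the median. *Krt8*, *Krt18* and *Krt19* lie between -0.49 and -0.32, and 11 of 12 visceral endoderm markers lie below 0.

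Of the 12 visceral endoderm markers, 11 were also below 0 by this measure, with a median of -0.24, and the value for *Spink3* was -1.18. The same markers stood further apart on replicate 2, where the median difference from the mean of replicates 1 and 3 was 0.56, beside 0.25 for *Krt8*, 0.04 for *Krt18* and 0.22 for *Krt19*. On the deposited scale, without normalization, the log2 of the summed signal of the list was 13.87, 13.97 and 12.90 on replicates 1, 2 and 3, and that of the mesenchymal markers was 10.77, 10.62 and 10.35. All 3 called epithelial markers and all 4 called extraembryonic ectoderm markers were also lower, with medians of -0.37 and -0.25, and the 4 called mesenchymal markers had a median of 0.17. Over all symbols of these lists, called or not, the medians were -0.13, -0.12 and -0.01. The part of these cell types in the *Krt8*, *Krt18* and *Krt19* differences was not tested.

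The standard error over beads was 6.74%, 7.55% and 9.49% of the signal for *Krt8* on 54, 52 and 41 beads, and 6.07%, 5.44% and 6.93% for *Krt18* on 49, 46 and 40 beads. The error over beads is technical and is on the deposited scale, so it is not set against the spread between arrays. Over the arrays, the SD of the normalized level was 0.28 log2 units for *Krt8* and 0.25 for *Krt18*, against 0.05 for *Krt10* and 0.09 for *Lmnb1*. The median SD of all 6357 called symbols was 0.17, and of called symbols with a mean signal of at least 8 it was 0.15. On the normalized scale *Krt10* and *Lmnb1* thus varied less between the arrays than the median called symbol, and *Krt8* and *Krt18* varied more. On the deposited scale the SD was 0.33 for *Krt10* and 0.30 for *Lmnb1*, both above the median of 0.25 for all called symbols. *Krt8* (0.56) and *Krt18* (0.53) were above it too. For called symbols with a mean signal of at least 8 that median was 0.32.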

How the data were processed

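Total RNA was amplified to biotin-labelled cRNA and read on 3 Illumina Mouse-6 arrays, which the sample labels place in a single group. The authors deposited log2 signals per gene symbol, not normalized between arrays, with the number of beads, a detection p-value and the standard error over beads. That standard error was deposited by the authors as a linear intensity. Partek is the tool named in the submitters' processing notes, and the settings with which the table was made and a genome build are not given in the sources used here. A legend of the study gives the detection threshold used here, and a signal cut-off given there for its plotted values was not used. Both the intermediate filament genes and the partner and marker lists were chosen with earlier results of these data known. All values of the table were used by symbol and 62 of 63 symbols were matched to a current gene through RefSeq (GRCm38.p6).

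Detection p-values deposited by the authors moved in steps of 1 in 936, from which the number of probes was inferred as the smallest that explains the bead numbers and the p-values: 1 for 22004 symbols and several for 8850. For levels, normexp background correction used those p-values of symbols with 1 probe, 16 was added as an offset, and values were quantile normalized and set to log2. As background, each array's lowest level was taken among 1-probe symbols whose detection p was under 0.01 but not 0. After normalization these levels were 4.68, 4.81 and 5.06. The level minus this background was tested with limma (lmFit, eBayes, one-sided, Benjamini-Hochberg over 30854 symbols, threshold 0.05), after a check on simulated data. Symbols defining the background are themselves called by detection p, so the 2 calls share their data. A gene with several symbols was counted as called where any of them was. Percentages of promoters with a motif are over all RefSeq windows in the table, and 40 of the 57 genes had one.

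Symbols named with values were those called, the simple epithelial keratins, type III and IV filaments and lamins whatever their call, those called on 1 or 2 arrays, and for the lists the called genes, the row with the brightest signal and defining markers not called. *Krt5*, *Krt14* and *Krt1* were added as the usual partners of named keratins, and *Dsp* and *Jup* as desmosomal anchors, after their values were seen. The alternatives were other detection thresholds and numbers of arrays, the limma call, 3 other scalings, an offset of 50, another background level, and leaving out each array. Of the scalings, median centring set each level against the median of all symbols on the array and not against the background level. R 4.3.3, limma 3.58.1, Python 3.11.15, numpy 2.4.6, pandas 2.3.3 and matplotlib 3.10.9 were used.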

Additional observations from a re-analysis of the deposited data

How the results depend on the processing

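The number of intermediate filament symbols called was 10, beside 6357 of all 30854 symbols. It was 12 at a detection p under 0.05 (7610 of all symbols) and 11 when 2 arrays sufficed (7897). When 1 array sufficed it was 14, and by limma it was 11 (7937 of all symbols). At a detection p under 0.001 it was 5, beside 5249 of all symbols, and *Krt8*, *Krt18*, *Krt19*, *Krt10* and *Lmnb2* were left. Leaving out each array in turn gave 10 to 11 symbols, 6 to 7 keratins, and 6524 to 7427 of all symbols. Counting a call on at least 1 array raised the 6357 called symbols of the whole table to 10172. The limma calls of *Krt8*, *Krt18*, *Krt19*, *Krt10*, *Vim*, *Des*, *Lmnb1* and *Lmnb2* held under all 8 alternatives, with differences from 2.79 to 5.06 for *Krt8* and from 0.28 to 1.41 for *Krt19*. That of *Krt23* was lost with unnormalized signals (0.17, adjusted p = 0.0711) and without replicate 2 (0.32, adjusted p = 0.324), that of *Lmna* without replicate 2, and that of *Nes* with unnormalized signals. *Krt7* passed only with median centring, where the reference is the array median, and with the other background level. Both are lower references than the main one. The lower *Krt19* level on replicate 3 was -0.13 when quantile normalization was run without background correction. The causes of these changes were not tested. No paired analysis was possible because the arrays form a single group. Signal over background limits *Krt7*, *Krt23*, *Des* and *Lmna*, and the combined detection p limits genes with several probes, such as *Vim* and *Nes*.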
